A study of Homo sapiens with 6 samples.

Results

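C3 is a line of SW620 cells in which DKC1 was silenced, and its transcriptome was set against that of SW620 cells with a scrambled hairpin. The libraries compared were 4 of the 6 of the series, 2 of C3 and 2 of scramble, chosen by the sample titles. Of 19672 listed genes, 13299 were tested. SW620 is an established human colorectal cancer line. All cells, controls included, carried a lentiviral short-hairpin construct in a pLV vector and were kept under puromycin, and no other treatment is given. C3 expresses a hairpin against DKC1, and the scramble cells express a non-targeting hairpin. A further knockdown line, C6, also with 2 libraries, entered the same fit. It thus bears on the gene filter, scaling and spread behind each p-value. Otherwise C6 served only to show where C3 differed from it. Which of the study's hairpins C3 carries, and whether C3 grew from a single clone, is not stated by the labels. C3 replicate 1 has a genotype tag that reads control but a title that places it in C3, and the title was followed. Titles call the libraries biological replicates without saying whether they were separate cultures, so p-values measure only the spread between these libraries.

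DKC1 encodes dyskerin, the catalytic subunit of H/ACA ribonucleoproteins. In these particles a small RNA guides dyskerin to uridines of ribosomal and spliceosomal RNA, which it turns into pseudouridine, and NHP2, NOP10 and GAR1 complete the core. Dyskerin also binds and stabilises the RNA component of telomerase, and inherited DKC1 mutations cause dyskeratosis congenita, a disease of short telomeres.

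The targeted gene was measured before any other. DKC1 (GRCh38.p14 chrX:154762864-154777689) was at 320 and 315 CPM (read counts scaled to a common library size) in scramble and at 144 and 149 CPM in C3. Both C3 libraries, including the library with the control tag, lay far below both scramble libraries. The level in C3 was 46.3% of that in scramble, a log2 fold change of -1.11 (standard error of the fit, SE, 0.06). The adjusted p was 4.29e-09 (edgeR's quasi-likelihood test, with p adjusted by Benjamini-Hochberg over all genes tested, which gives every adjusted p below). DKC1 fell by 2.21 on the log2 scale in C6, and the difference between the lines passed the same test (adjusted p = 1.68e-09). Against scramble 46.7% of all genes tested were called in C6, 23.8% higher and 22.8% lower. The test of C6 minus C3 called 49.2%, with 25.1% above C3 in C6 and 24.1% below. C3 was therefore the line with the higher remaining DKC1 level.

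Total counts ranged from 26077966 to 31021000 per library, so that 3 counts, the limit that a count of 0 allows, corresponded to 0.0967 to 0.115 CPM; this covers counting error only. The chi-square of counts between same-group libraries, per degree of freedom, was 7.53 in scramble and 6.04 in C3, above sampling noise. Of 13 markers of colorectal epithelium, CDX1 was at 3 counts or fewer in every library and LGALS4 in both C3 libraries. Of the 12 tested, 8 were called lower in C3 and 1 higher, beside 11.9% lower and 12.4% higher among all genes tested. The summed level of the 13 markers was 9104 and 8519 CPM in scramble and 6821 and 6988 CPM in C3. Fibroblast markers summed to 24.9 and 24.0 CPM in scramble and 30.6 and 34.9 CPM in C3, with 5 of 9, COL1A2, COL3A1, DCN, PDGFRA and FAP, at 3 counts or fewer in all 4. Leukocyte markers summed to 19.8 and 18.9 CPM in scramble and 13.5 and 12.7 CPM in C3, and endothelial markers to 6.56 and 5.68 CPM against 3.35 and 3.43 CPM. The defining leukocyte marker PTPRC and the endothelial marker CDH5 were at 3 counts or fewer in all 4. Of the total count, mitochondrially encoded genes took 5.92% and 6.02% in scramble and 6.49% and 6.39% in C3.

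Of the 13299 genes tested, 3230 (24.3%) were called between C3 and scramble at an adjusted p under 0.05. Of these, 1654 (12.4%) were higher in C3 and 1576 (11.9%) lower. The changes were of unequal size in the 2 directions. A median change of 0.37 (log2) was found for genes called higher and of -0.57 for genes called lower. At 2-fold or more, 139 genes (1.05%) were higher and 452 (3.4%) lower, and at 4-fold or more the counts were 44 (0.331%) and 158 (1.19%). Both C3 libraries lay above both scramble libraries in 31.8% of genes tested and below both in 31.1%, which is the background for each statement below that groups did not overlap. The imbalance followed the level. In the 3328 genes with the lowest CPM, 165 were called higher and 448 lower, and in the 3324 with the highest the counts were 738 and 316. Removing a single library lowered the number of calls to 2253 without scramble replicate 1 and to 2237 without C3 replicate 1. It was 1946 without scramble replicate 2 and 1947 without C3 replicate 2.

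**Figure D1:**
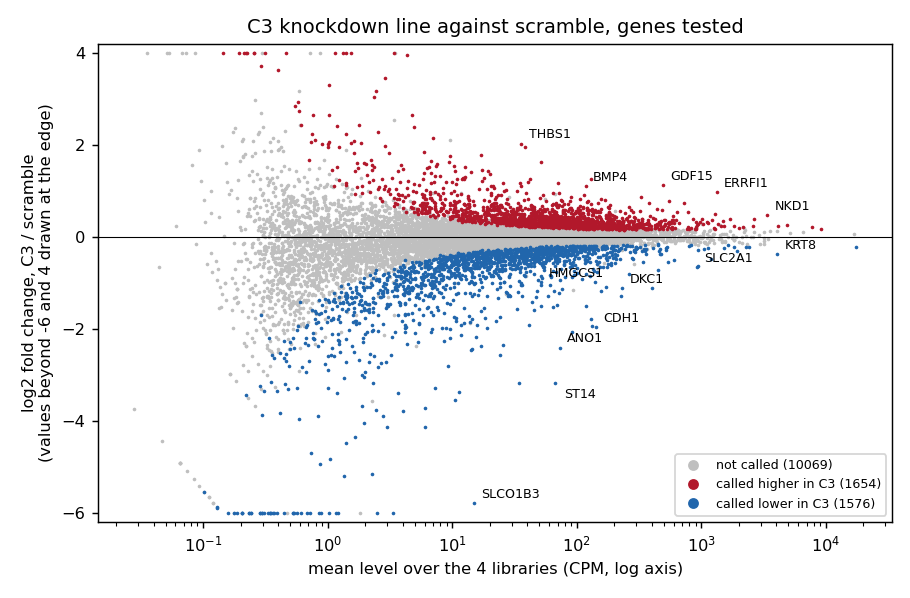
Each point is a gene; the x axis is its mean level over the 2 scramble and 2 C3 libraries (CPM, log axis) and the y axis its log2 fold change, C3 against scramble. Red points (1654) were called higher and blue points (1576) lower in C3, and the large falls, such as ST14 at -3.18 and SLCO1B3 at -5.79, have few counterparts of like level among the rises.

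The fall of DKC1 was not shared by the rest of its particle. Of the 6 H/ACA proteins and assembly factors, DKC1 and NAF1, an assembly factor, were called lower and NHP2 and GAR1, both core proteins, higher. NHP2 was at 64.2 and 59.2 CPM in scramble and 75.5 and 73.5 CPM in C3, and GAR1 at 16.1 and 15.9 CPM against 18.2 and 23.3 CPM. Both rises were small, with log2 fold changes of 0.27 (SE 0.08) and 0.37 (SE 0.12), and neither was called without scramble replicate 2 or without C3 replicate 2. NHP2 was also lost without C3 replicate 1 and GAR1 without scramble replicate 1, with upper-quartile scaling, with DESeq2 and with the positional shift removed. NOP10, the remaining core protein, had a log2 fold change of 0.15 (adjusted p = 0.109). NAF1 lies in a stretch of chromosome 4 where most genes were lower in C3, described at the end, and its log2 fold change of -0.41 became 0.05 once the shift of its neighbours was removed.

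Telomerase and shelterin genes, which maintain and cap chromosome ends, showed no common direction, with 2 of 14 called higher, 2 lower and a median log2 fold change of -0.06; 1 was lower without C3 replicate 2, and 1 higher without any library but C3 replicate 1. The share called was 28.6%, beside 24.3% of all genes tested. TERT, the reverse transcriptase, was at 2.38 and 2.05 CPM in scramble and 1.81 and 2.31 CPM in C3, and these ranges overlapped (adjusted p = 0.815). STN1, a subunit of the CST complex that acts in telomere replication, was at 34.7 and 29.9 CPM in scramble and 19.6 and 22.6 CPM in C3, a fall by 0.61 (log2, SE 0.10, adjusted p = 0.00038). RTEL1, a helicase that opens telomeric loops, was at 0.557 and 0.484 CPM in scramble and 6.75 and 9.53 CPM in C3, with a log2 fold change of 3.95 (SE 0.53, adjusted p = 0.000678). Both C3 libraries were far above both scramble libraries, while C6 averaged 0.209 CPM. RTEL1 lies in the raised stretch of chromosome 20 described at the end and shares its locus with a readthrough transcript, and no source used here says how the counts were divided between them.

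Genes of the ribosome, the machine whose RNA dyskerin modifies, moved little in C3. Of 79 cytosolic ribosomal protein genes, 2 were called higher and 3 lower, with a median log2 fold change of -0.02, against a median of 0.0013 over all genes tested. With a library left out, 0 to 5 were lower, 5 without scramble replicate 2, 1 without C3 replicate 2 and 0 without either of the others. Of 63 nucleolar assembly factors, 7 were higher and 1 lower (median 0.09); the count of higher genes was 3 or 4 with any single library left out. UTP20, a factor of the small-subunit processome, was at 61.5 and 69.0 CPM in scramble and 91.3 and 80.8 CPM in C3 (log2 fold change 0.40, SE 0.08, adjusted p = 0.0021). The shares called were 6.3% of the ribosomal protein genes, 12.7% of the nucleolar factors and 15.4% of the box C/D genes given next. Among all genes tested the share was 24.3%. Of 13 genes of the box C/D particle, which guides methylation in place of pseudouridylation, 2 were higher and none lower at that threshold, among them PIH1D1, an assembly factor (log2 fold change 0.42, SE 0.08); 1 was higher without scramble replicate 2 or C3 replicate 2.

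The genes that rose most in C3 included secreted and surface proteins of cell guidance and matrix. THBS1, which encodes the matrix glycoprotein thrombospondin, was at 14 and 14.1 CPM in scramble and at 54.0 and 61.4 CPM in C3. The C3 libraries were both far above scramble (4.09-fold, log2 2.03, SE 0.11, adjusted p = 6.32e-09), and C6 averaged 12.0 CPM. SEMA6A, a transmembrane semaphorin of axon guidance, was at 2.19 and 2.94 CPM in scramble and 9.01 and 9.53 CPM in C3 (log2 1.85, SE 0.21). LHFPL6, a membrane protein, was at 7.65 and 7.56 CPM in scramble and 24.7 and 27.6 CPM in C3 (log2 1.78, SE 0.12). In C6, SEMA6A and LHFPL6 lay on the other side of scramble, with log2 fold changes of -1.65 and -1.59, and both differences between the lines passed the test (adjusted p = 2.2e-08 and 1e-10).

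A further group of the strongest rises reached much the same size in C6. ROR1, a receptor for non-canonical WNT ligands, was at 3.75 and 3.84 CPM in scramble and 11.1 and 11 CPM in C3, with log2 fold changes of 1.54 in C3 and 1.48 in C6. TNFRSF19 (TROY), a WNT target of intestinal stem cells, was at 3.86 and 3.72 CPM against 11.2 and 11.5 CPM, with log2 fold changes of 1.58 and 1.83. In both genes the C3 libraries were tightly grouped above scramble, and the difference between the lines did not pass the test (adjusted p = 0.77 and 0.11). FILIP1L, a cytoskeletal regulator, was at 15.4 and 15.9 CPM in scramble and 64.2 and 58.1 CPM in C3 (log2 1.97, SE 0.10), and its rise was smaller in C6 (1.18, adjusted p of the difference 3.4e-06). FILIP1L overlaps CMSS1 on the genome, and no source used here says how reads of overlapping genes were assigned. CMSS1 itself was at 48.1 to 56.5 CPM in the 4 libraries (adjusted p = 0.519).

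Among genes called with a mean of at least 5 CPM over the 4 libraries, the largest fall was that of SLCO1B3, a bile-acid and drug uptake transporter that colorectal tumours can express. It was at 27.7 and 30.8 CPM in scramble and at 0.258 and 0.818 CPM in C3, or 1.84% of the scramble level (log2 -5.79, SE 0.22, adjusted p = 7.84e-10). The neighbouring SLCO1B7 was at 1.97 and 1.56 CPM in scramble and had no count in C3, at least 34.9-fold lower. In C6 both genes had mean levels above scramble, with SLCO1B3 at 37.5 CPM and the lines differing at an adjusted p of 1.1e-10. SLCO1B3, SLCO1B7 and a readthrough of both share a locus, so the split of reads among them is uncertain.

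Several other falls concerned surface and secreted proteins. IL18, an epithelial cytokine of the interleukin-1 family, was at 12.2 and 10.5 CPM in scramble and 0.678 and 0.605 CPM in C3 (log2 -4.13, SE 0.31). ALCAM (CD166), an adhesion molecule, was at 10.7 and 11.7 CPM against 0.452 and 1.28 CPM (log2 -3.71, SE 0.29). ANO1, a calcium-activated chloride channel, was at 119 and 127 CPM against 23.5 and 23.0 CPM (log2 -2.40, SE 0.08). In none of these did a C3 library come near a scramble library. IL18 also fell in C6 (log2 -3.01), whereas ALCAM and ANO1 had log2 fold changes of -0.32 and 0.17 there, and both differed between the lines (adjusted p = 8.4e-07 and 4.6e-12).

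A small set of genes was at 3 counts or fewer in both libraries of a group and at a mean of at least 1 CPM in the other. In 18 genes the low group was C3, and 17 of these were called. In 6 genes it was scramble, and 3 of these were called. HLA-G among the former and BIVM-ERCC5 and JMJD7-PLA2G4B among the latter had no count in 1 library of the higher group and were not called (adjusted p = 0.505, 0.527 and 0.383), and PAK6 rested on C3 replicate 2 (adjusted p = 0.432). CALB1, the calcium buffer calbindin, was at 6.50 and 7 CPM in scramble and had no count in C3, at least 133-fold lower when set against 3 counts over both C3 libraries. CACNA1E, a calcium channel subunit, was at 5.16 and 4.84 CPM and GALNT3, which starts O-linked glycans, at 2.23 and 2.57 CPM in scramble. Neither had a count in C3, at least 98.9-fold and 47.4-fold lower. MGMT, which removes alkyl groups from guanine, was at 2.19 and 1.90 CPM in scramble and also had no count in C3, at least 40.4-fold lower. Among genes detected in C3 with no count in scramble was EPHA3, an ephrin receptor, at 2.49 and 2.1 CPM, at least 40.1-fold higher. ARPC4-TTLL3 and CTNND2, given further below, were also called higher with no count in scramble.

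Genes that define epithelial cells fell together in C3. Epithelial sheets are held by adherens junctions built on E-cadherin (CDH1), desmosomes, tight junctions, keratin filaments and integrin contacts with the basement membrane, and the splicing factors ESRP1 and ESRP2 set epithelial isoforms. Of 23 tested epithelial identity genes, 16 were called lower and 1 higher, with a median log2 fold change of -0.50, against 11.9% lower and a median of 0.0013 among all genes. With any single library left out, 14 to 17 were lower and none higher. This list, like all others here, was chosen with earlier results of these data known. The member called higher was ELF3, with a log2 fold change of 0.29 (adjusted p = 0.0169).

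CDH1 (chr16:68737292-68835537) was at 220 and 230 CPM in scramble and at 60.3 and 55.9 CPM in C3. The C3 libraries thus held 25.8% of the scramble level (log2 -1.96, SE 0.07, adjusted p = 4.1e-11). In C6, CDH1 averaged 183 CPM (log2 -0.30), and the lines differed (adjusted p = 1e-10). ESRP1 followed with 173 and 177 CPM in scramble and 62.4 and 61.9 CPM in C3 (log2 -1.50, SE 0.06), and ESRP2 was at 52.2 and 57.5 CPM against 37.4 and 40.4 CPM (log2 -0.50, SE 0.08). Both splicing factors were below scramble in each C3 library without overlap. MARVELD3, a tight-junction protein, was at 15.3 and 16.3 CPM against 3.42 and 3.49 CPM (log2 -2.19, SE 0.17).

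Among list members with a mean of at least 5 CPM, the steepest fall was in a protease system of the epithelial surface. ST14 (chr11:130159782-130210362), the membrane serine protease matriptase, was at 119 and 123 CPM in scramble and 13.4 and 13.2 CPM in C3. This was 11% of the scramble level, with nearly identical C3 libraries (log2 -3.18, SE 0.09, adjusted p = 4.57e-12). Its inhibitors also fell, SPINT2 from 242 and 217 CPM to 143 and 156 CPM (log2 -0.62) and SPINT1 from 71.4 and 68.8 CPM to 52.3 and 55.5 CPM (log2 -0.38). Prostasin (PRSS8), a partner protease of matriptase, was at 0.929 and 0.856 CPM in scramble and had no count in C3. Other members kept their level within the resolution of the test. KLF5, an epithelial transcription factor, was at 529 and 552 CPM in scramble and 549 and 542 CPM in C3, and the desmosomal protein DSP had a log2 fold change of 0.04 (SE 0.09).

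**Figure D2:**
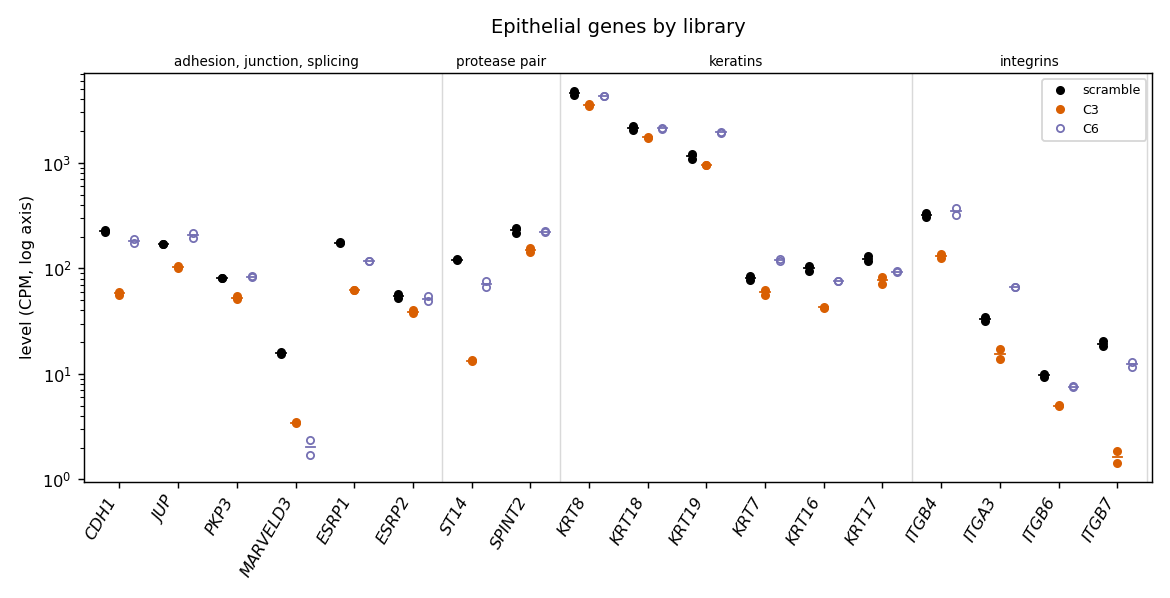
Level of each gene in each library (CPM, log axis), with filled black points for scramble, filled orange points for C3, open purple points for C6 and short bars for group means. The genes were picked from those lower in C3, and ELF3, KLF5, DSP and the keratin called higher are not drawn. C3 lies below scramble for each gene shown, from KRT19 at -0.27 to ITGB7 at -3.55 (log2), while C6 lies above scramble for ITGA3.

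Keratins, the intermediate filaments of epithelia, were lower in 9 of 12 and higher in 1 (median -0.42, 83.3% called beside 24.3% of all genes). KRT8 was at 4744 and 4436 CPM in scramble and 3474 and 3612 CPM in C3, and its partner KRT18 at 2253 and 2035 CPM against 1714 and 1767 CPM. These were among the 6 largest losses in CPM of all genes, although the log2 fold changes were only -0.37 (SE 0.06) and -0.30 (SE 0.06). KRT16, a keratin of stratified and stressed epithelium, fell more, from 106 and 94.1 CPM to 43.2 and 42.4 CPM (log2 -1.23, SE 0.07). In C6, 9 of the 12 keratins were called above C3 and none below.

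Of 16 tested integrins, receptors that anchor cells to the basement membrane and matrix, 6 were lower and none higher in C3 at an adjusted p under 0.05. That made 37.5% called, beside 24.3% of all genes tested. ITGB4, which pairs with ITGA6 to bind laminin in hemidesmosomes, was at 305 and 338 CPM in scramble and 137 and 127 CPM in C3 (log2 -1.29, SE 0.08), and ITGA6 itself at 993 and 1074 CPM against 859 and 835 CPM (log2 -0.29, SE 0.06). ITGA3, another laminin receptor chain, was at 31.5 and 34.4 CPM against 17.2 and 13.9 CPM (log2 -1.08, SE 0.10).

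Of 16 mesenchymal genes, 4 were called higher and none lower at an adjusted p under 0.05 (median 0.22), a share of 25.0% called beside 24.3% of all genes tested. Fibroblast markers, whose summed level was also higher in C3 as given above, had 1 of 4 tested genes called higher, and their part in these counts was not tested. TAGLN, an actin-binding protein of smooth muscle and fibroblasts, was at 24.3 and 18.9 CPM in scramble and 48.0 and 49.6 CPM in C3 (log2 1.18, SE 0.11, adjusted p = 1.92e-06). SNAI2 (SLUG), a repressor of CDH1, was at 20.1 and 21.7 CPM against 33.2 and 30.8 CPM (log2 0.61, SE 0.09). Both C3 libraries were above both scramble libraries in each. SNAI1, also called higher, lost its call with DESeq2. With the shift of its chromosomal neighbours removed, SNAI1 changed sign, to -0.11 (log2), and 3 genes of the list were called higher. In C6, SNAI2 also rose (log2 0.86), while TAGLN had a log2 fold change of -0.20. Fewer were called without some libraries, 2 without scramble replicate 1 or C3 replicate 1 and 3 without either of the others.

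Tight-junction and polarity genes were mixed, with 3 of 19 higher and 5 lower. Called were 42.1% of these and 45.0% of the intestinal lineage genes given below, beside 24.3% of all genes tested. CRB3, an apical polarity protein, was at 10.1 and 9.38 CPM in scramble and 4.26 and 5.05 CPM in C3 (log2 -1.07, SE 0.16), and PATJ, a scaffold of the same complex, at 61.7 and 70.4 CPM against 42.1 and 42.1 CPM (log2 -0.65, SE 0.09). CGNL1 (paracingulin) went the other way, from 29.8 and 30.2 CPM to 45.9 and 47.3 CPM (log2 0.64, SE 0.09). In each of these genes the groups did not overlap. Of 20 intestinal lineage genes, 3 were higher and 6 lower (median -0.07); 3 were lower without scramble replicate 1 or C3 replicate 1. CEACAM5, an adhesion molecule of colonic epithelium, fell from 2.27 and 1.97 CPM to 0.258 and 0.498 CPM (log2 -2.49, SE 0.33), while HNF4A, a regulator of enterocytes, rose from 68.4 and 67.7 CPM to 94.0 and 87.5 CPM (log2 0.42, SE 0.07).

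Growth-factor signalling genes shifted in opposite directions for ligands and brake. Ligands of the ERBB family bind and activate EGFR, and ERRFI1 (MIG6) is a feedback inhibitor of the receptor. Of 11 tested ERBB genes, 5 were lower and 1 higher; 3 were lower without scramble replicate 1. Among the ERBB genes 54.5% were called, beside 24.3% of all genes tested. HBEGF was at 50.7 and 46.1 CPM in scramble and 23.3 and 24.0 CPM in C3 (log2 -1.03, SE 0.08), and EREG at 22.5 and 24.3 CPM against 15.0 and 16.5 CPM (log2 -0.57, SE 0.09). EGFR, low in this line, was at 2.41 and 1.94 CPM in scramble and 0.129 and 0.285 CPM in C3 (log2 -3.39, SE 0.49). ERRFI1 rose from 886 and 898 CPM to 1762 and 1748 CPM (log2 0.98, SE 0.06, adjusted p = 8.79e-09), which was among the 6 largest gains in CPM of all genes. In C6, HBEGF and EREG were above scramble (log2 0.45 and 1.16), and both differed from C3 (adjusted p = 1.5e-09 and 1.1e-09).

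Targets of WNT signalling, the pathway that drives intestinal stem cells and most colorectal cancers, were more often higher, with 11 of 23 called higher, 4 lower and a median of 0.28. This list had 65.2% called, beside 24.3% of all genes tested. AXIN2, a feedback inhibitor and standard readout of the pathway, was at 102 and 109 CPM in scramble and 161 and 160 CPM in C3 (log2 0.60, SE 0.06), and NKD1, another feedback inhibitor, at 2679 and 2986 CPM against 4088 and 3761 CPM (log2 0.47, SE 0.08). SP5, a target transcription factor, rose from 80.5 and 77.9 CPM to 107 and 121 CPM (log2 0.52, SE 0.07). All 3 had both C3 libraries above scramble. CD44, a surface glycoprotein counted among the targets, fell from 9.40 and 9.76 CPM to 5.62 and 4.70 CPM (log2 -0.89, SE 0.13), and the ligand inhibitor DKK1 fell from 28.5 and 27.0 CPM to 16.8 and 17.4 CPM (log2 -0.70, SE 0.10). AXIN2 rose as much in C6 (log2 0.59), while NKD1 was below scramble there (-0.69; adjusted p of the difference 6.5e-08). The non-canonical ligand WNT11 was at 26.5 and 27.0 CPM in scramble and 9.20 and 9.29 CPM in C3 (log2 -1.53, SE 0.12).

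In the TGF-beta and BMP list 9 of 21 genes were higher and 3 lower (57.1% called, beside 24.3% of all genes). The BMP ligands rose, BMP4 from 73.8 and 75.7 CPM to 160 and 160 CPM (log2 1.10, SE 0.06, adjusted p = 6.4e-09) and BMP7 from 49.9 and 48.1 CPM to 92.9 and 97.2 CPM (log2 0.96, SE 0.07). BMP7 lies in a stretch of chromosome 20 that was higher as a whole. The activin subunit INHBB rose from 202 and 207 CPM to 314 and 328 CPM (log2 0.65, SE 0.06). TGFBR2, the receptor that binds TGF-beta, fell from 255 and 265 CPM to 192 and 183 CPM (log2 -0.47, SE 0.06). C3 and scramble libraries were separate in each of these 4 genes.

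Notch genes govern the choice between absorptive and secretory intestinal cells. They were lower in 9 of 19 and higher in 1 (median -0.44, 52.6% called beside 24.3% of all genes tested). The ligand JAG1 was at 673 and 728 CPM in scramble and 506 and 483 CPM in C3 (log2 -0.50, SE 0.06). The receptor NOTCH2 was at 31.2 and 33.4 CPM against 17 and 15.5 CPM (log2 -0.99, SE 0.13), and the target NRARP at 10.8 and 9.12 CPM against 4.10 and 3.81 CPM (log2 -1.33, SE 0.18). Ligand, receptor and target were thus each below scramble in both C3 libraries. JAG1 was above scramble in C6 (log2 0.59; adjusted p of the difference 2.6e-09), while NOTCH2 was not separable between the lines (adjusted p = 0.26). Without scramble replicate 2 only 3 of the 19 were called lower.

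Immediate-early transcription factors, induced within minutes of growth signals or stress, were higher in 13 of 26 and lower in 3 (median 0.28). This list had 61.5% called, beside 24.3% of all genes tested. JUN was at 144 and 137 CPM in scramble and 233 and 219 CPM in C3 (log2 0.69, SE 0.06), KLF6 at 76.8 and 83.0 CPM against 128 and 121 CPM (log2 0.64, SE 0.06) and EGR1 at 193 and 209 CPM against 299 and 278 CPM (log2 0.52, SE 0.07). No C3 library of these genes fell within the scramble range. JUN and KLF6 were higher still in C6 (log2 1.11 and 1.56) and EGR1 was not (0.10), each different from C3 (adjusted p = 3.2e-05, 1.7e-08 and 7.7e-05).

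Genes of innate immunity and antigen presentation changed in both directions. Of the interferon-stimulated list 45.2% were called, beside 24.3% of all genes tested. Interferon-stimulated genes answer viral RNA and interferon, and 11 of the 31 tested were lower in C3 and 3 higher (median -0.48); 7 were lower without scramble replicate 1 and 6 without scramble replicate 2. IFIH1 (MDA5), a sensor of double-stranded RNA, was at 8.58 and 10.4 CPM in scramble and 4.07 and 3.66 CPM in C3 (log2 -1.29, SE 0.15). APOL6 was at 2.38 and 2.87 CPM against 1.19 and 0.961 CPM (log2 -1.27, SE 0.21), and MX2, an antiviral GTPase, went up from 17.6 and 16.5 CPM to 27.9 and 25.2 CPM (log2 0.64, SE 0.10). IFIH1 and APOL6 were far above scramble in C6, with log2 fold changes of 1.75 and 3.61 (adjusted p of the differences 1.9e-10 and 1.1e-11).

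Of 14 MHC class I and immunoproteasome genes, 4 were higher and 5 lower (median -0.04, 64.3% called beside 24.3% of all genes tested). The count of higher genes was 1 without scramble replicate 1, 2 without C3 replicate 1 and 0 without either of the others. The genes called higher were B2M, TAP2, PSMB10 and CALR, chosen here after their values were seen, with log2 fold changes of 0.21, 0.23, 0.47 and 0.16. The falls were larger in size. NLRC5, the transactivator of MHC class I genes, was at 14.6 and 13.6 CPM in scramble and 2.42 and 3.49 CPM in C3, or 21.0% of scramble (log2 -2.26, SE 0.19, adjusted p = 5.28e-07). The immunoproteasome subunits PSMB8 and PSMB9 fell from 22.7 and 23.1 CPM to 10.2 and 10.2 CPM (log2 -1.16, SE 0.10) and from 3.57 and 3.91 CPM to 1.48 and 1.53 CPM (log2 -1.31, SE 0.24). ERAP1, which trims peptides for presentation, fell from 45.1 and 52.7 CPM to 30.0 and 27.6 CPM (log2 -0.76, SE 0.09). Each of these 4 genes was lower in both C3 libraries. In C6, PSMB8 and PSMB9 stayed near scramble, with log2 fold changes of -0.12 and 0.22 and adjusted p-values of the difference of 8.4e-07 and 8e-05. Of the NF-kB list, 8 of 20 genes were lower and 2 higher; 5 were lower without scramble replicate 2 or without C3 replicate 2. NFKB2 itself was at 14.3 and 15.6 CPM in scramble and 7.52 and 8.75 CPM in C3 (log2 -0.88, SE 0.12), and TNFAIP2 at 25.6 and 25.2 CPM against 6.23 and 5.05 CPM (log2 -2.17, SE 0.13). The chemokine CXCL3 rose from 5.28 and 6.18 CPM to 15.6 and 15.4 CPM (log2 1.43, SE 0.13). On the NF-kB list 50.0% were called, beside 24.3% of all genes tested.

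Cholesterol genes fell together, with 70.4% of the list called, beside 24.3% of all genes tested. Cells make cholesterol through the mevalonate pathway and take it up from lipoproteins, both under the transcription factor SREBP-2, the product of SREBF2, which binds sterol regulatory elements. Of 27 tested genes of synthesis and uptake, 19 were lower in C3 and none higher at an adjusted p under 0.05, with a median log2 fold change of -0.44, and 16 or 17 were lower with any single library left out. Exact matches to a consensus sterol regulatory element, with 1 base left free, were searched on both strands of the 250 bases before the start in RefSeq promoters of GRCh38.p14. They occurred in 0.12% of 27305 promoters and in 1 of the 20 list members with a promoter, SREBF2. That stretch is shown because it is the regulator's own promoter, at chr22:41832936-41833015 on the plus strand, with the match in capitals.
SREBF2: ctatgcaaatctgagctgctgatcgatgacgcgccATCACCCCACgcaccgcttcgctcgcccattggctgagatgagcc
A match describes the letters only and is not a measured binding site.

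HMGCS1, the enzyme that makes HMG-CoA, was at 70.5 and 67.3 CPM in scramble and 34.4 and 35.1 CPM in C3 (log2 -0.99, SE 0.09, adjusted p = 7.97e-07). Both C3 libraries were thus well below scramble at the head of the pathway. Among later steps DHCR7, the last reductase, fell from 170 and 164 CPM to 105 and 102 CPM (log2 -0.69, SE 0.06), and MSMO1, which removes sterol methyl groups, from 65.9 and 62.1 CPM to 22.4 and 25.4 CPM (log2 -1.42, SE 0.09). MSMO1 lies in the lowered stretch of chromosome 4. SREBF2 was at 222 and 241 CPM in scramble and 173 and 168 CPM in C3 (log2 -0.44, SE 0.06). FDPS and LSS, 2 enzymes between these steps, had log2 fold changes of -0.05 and -0.06 and were not called.

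In C6 the same list had 21 genes lower and 3 higher than scramble, and 11 of the 27 were below C3 and 8 above it by the test of the difference. HMGCS1 was less reduced in C6 (log2 -0.66), whereas STARD4, a sterol carrier, was more reduced (-1.61 against -0.59 in C3), with adjusted p-values of the difference of 0.0053 and 9.1e-07. Fatty acid genes did not move one way, with 3 of 18 higher and 5 lower in C3, and only 1 lower without scramble replicate 2, 2 without scramble replicate 1 and 3 without either C3 replicate. The desaturase SCD fell from 619 and 655 CPM to 452 and 418 CPM (log2 -0.55, SE 0.07), while ACSS2, which makes acetyl-CoA from acetate, rose from 9.18 and 9.46 CPM to 24.7 and 26.3 CPM (log2 1.45, SE 0.11). The groups were separate in both genes. Of the fatty acid list 44.4% were called, beside 24.3% of all genes tested.

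Glycolytic genes were higher in 12 of 23 and lower in 1 (median 0.20, 56.5% called beside 24.3% of all genes tested). LDHA, which turns pyruvate into lactate, was at 659 and 617 CPM in scramble and 905 and 951 CPM in C3 (log2 0.54, SE 0.06), and TPI1 at 527 and 502 CPM against 727 and 769 CPM (log2 0.54, SE 0.06). The gene that fell was SLC2A1, the glucose transporter GLUT1, at 1124 and 1113 CPM in scramble and 711 and 709 CPM in C3 (log2 -0.66, SE 0.06, adjusted p = 1.07e-06). LDHA and TPI1 thus moved opposite to the transporter, with no overlap between groups, while 10 of the 23 genes were not called. Fewer were called higher without scramble replicate 2 or without either C3 replicate. SLC2A1 is also a target of hypoxia-inducible factors. On that list NDRG1 fell from 10.9 and 9.20 CPM to 3.81 and 4.45 CPM (log2 -1.28, SE 0.15), and 3 of 17 genes were lower and 1 higher. The share called was 23.5%, beside 24.3% of all genes tested.

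Genes of the amino-acid and stress response under ATF4, a transcription factor that acts when translation initiation is curbed, were higher in 16 of 35 and lower in none at an adjusted p under 0.05 (median 0.26). In all, 45.7% of the list was called, beside 24.3% of all genes tested. The letters TGATGNAA, an element bound by ATF4 with C/EBP partners, were found on either strand in 3.19% of promoters and in 4 of the 30 members with a promoter. Stretches of CHAC1 (chr15:40953226-40953305, plus strand) and ATF3 (chr1:212565180-212565259, plus strand) are shown because both genes rose in C3, with the match in capitals. Of the other members with a match, ASNS had a log2 fold change of 0.19 (adjusted p = 0.0384) and FGF21 of 0.55 (adjusted p = 0.16). In CHAC1 the match reads on the opposite strand.
CHAC1: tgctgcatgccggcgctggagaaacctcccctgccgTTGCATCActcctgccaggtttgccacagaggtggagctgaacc
ATF3: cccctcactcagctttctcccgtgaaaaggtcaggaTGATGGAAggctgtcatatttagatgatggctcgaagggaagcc
CHAC1, which degrades glutathione, was at 50.3 and 48.7 CPM in scramble and 79.2 and 72.7 CPM in C3 (log2 0.62, SE 0.07), and ATF3 at 41.4 and 37.9 CPM against 58.8 and 58.5 CPM (log2 0.57, SE 0.08). GDF15 (chr19:18386158-18389176), a secreted stress cytokine, had the largest change of the list, from 326 and 296 CPM to 646 and 710 CPM (log2 1.12, SE 0.07, adjusted p = 1.12e-08). PSAT1, of serine synthesis, rose from 505 and 492 CPM to 688 and 688 CPM (log2 0.47, SE 0.06). All 4 were above scramble in both C3 libraries. In C6, GDF15 and PSAT1 were instead below scramble (log2 -0.32 and -0.52), and both differed from C3 (adjusted p = 2.5e-10 and 5.1e-09).

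NRF2 targets, the antioxidant and detoxifying enzymes that NRF2 induces through antioxidant response elements, were higher in 16 of 31 and lower in 1 (median 0.28). In all, 54.8% of the list was called, beside 24.3% of all genes tested. Without C3 replicate 2 the count of higher genes was 10. The letters TGACNNNGC were found on either strand in 11.03% of promoters and in 7 of the 24 members with a promoter. The stretches of TXNRD1 (chr12:104215644-104215723, plus strand), ME1 (chr6:83431145-83431224, minus strand) and GPX2 (chr14:64942824-64942903, minus strand) are shown because these 3 genes rose, with the match in capitals. The other 4 members with a match were not called, GCLM at 0.22, PGD at -0.10, AIFM2 at -0.03 and SLC3A2 at 0.16 (log2), so a match did not go with a rise in each case. In GPX2 it reads on the strand opposite to the gene.
TXNRD1: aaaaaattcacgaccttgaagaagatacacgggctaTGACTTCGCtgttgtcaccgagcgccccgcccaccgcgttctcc
ME1: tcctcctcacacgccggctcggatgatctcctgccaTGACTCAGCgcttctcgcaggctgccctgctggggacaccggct
GPX2: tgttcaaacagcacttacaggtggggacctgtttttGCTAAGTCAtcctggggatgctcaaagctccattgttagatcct
TXNRD1, thioredoxin reductase, was at 179 and 179 CPM in scramble and 263 and 270 CPM in C3 (log2 0.57, SE 0.06). ME1, the NADPH-producing malic enzyme, was at 32.1 and 38.1 CPM against 52.7 and 58.1 CPM (log2 0.66, SE 0.11), and GPX2, a glutathione peroxidase of the gut, at 154 and 153 CPM against 206 and 215 CPM (log2 0.46, SE 0.06). FTL, the ferritin light chain, rose from 402 and 369 CPM to 573 and 584 CPM (log2 0.59, SE 0.06). In none of the 4 genes did the groups overlap. ABCC3, an export pump on the same list, fell from 24.9 and 28.4 CPM to 14.3 and 15.8 CPM (log2 -0.82, SE 0.11). ME1 and GPX2 were below scramble in C6 (log2 -0.45 and -0.44), with adjusted p-values of the difference of 1.2e-06 and 1.4e-08.

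**Figure D3:**
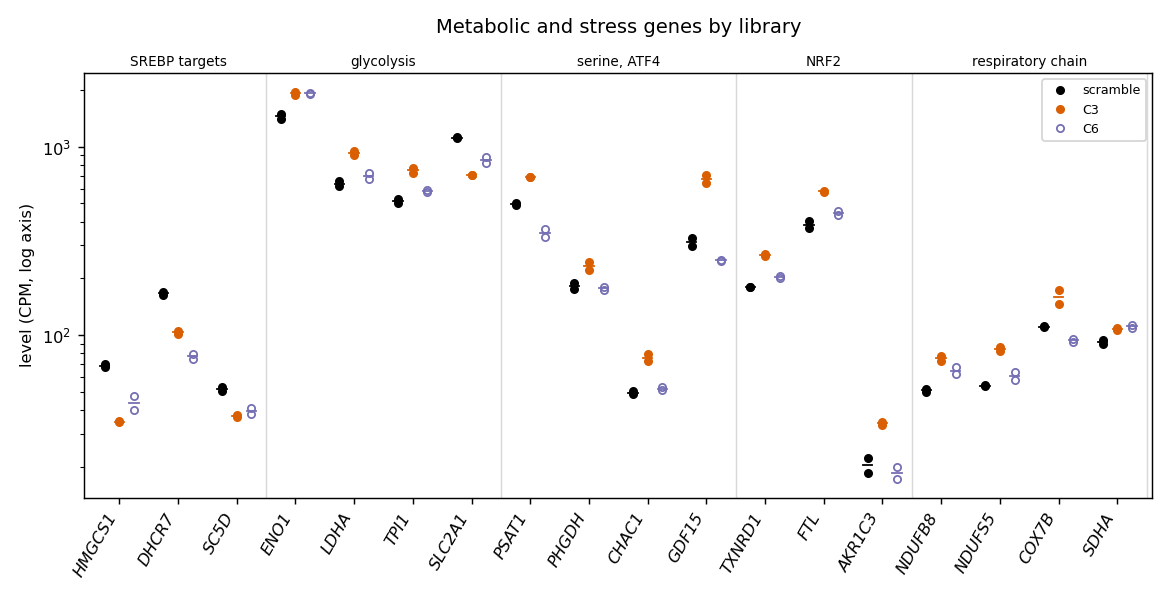
Level of each gene in each library (CPM, log axis), with filled black points for scramble, filled orange points for C3, open purple points for C6 and short bars for group means. The sterol genes and SLC2A1 lie below scramble in C3 and the other genes above it, and PSAT1 and GDF15 lie above scramble in C3 but below it in C6.

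Many respiratory chain genes rose by small amounts. The chain is built from subunits encoded in the nucleus and 13 messages encoded in mitochondria. Of 76 nuclear-encoded genes, 50 were higher in C3 and none lower at an adjusted p under 0.05, with a median log2 fold change of 0.29. This was 65.8% called, beside 24.3% of all genes tested. The 26 others were not called, and the lowest value in the list was -0.19. The count depended on the libraries, with 25 higher without scramble replicate 2, 26 without C3 replicate 2 and 37 without C3 replicate 1, while the median stayed between 0.23 and 0.37. NDUFS5, of complex I, was at 54.1 and 53.6 CPM in scramble and 82.3 and 86.7 CPM in C3 (log2 0.65, SE 0.07), and NDUFB8 at 51.9 and 50.0 CPM against 73.1 and 77.7 CPM (log2 0.57, SE 0.07). COX7B, of complex IV, was at 112 and 110 CPM against 146 and 174 CPM (log2 0.53, SE 0.08). C3 was above scramble in each library for these genes. COX7B was below scramble in C6 (log2 -0.24; adjusted p of the difference 1.1e-06), and over the list 29 genes were called below C3 in C6 and 8 above.

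Many of these messages are short, and the length of a transcript moved with the fold change. The length of a gene was taken as that of its longest annotated transcript. The 3246 genes shortest by this measure had a median log2 fold change of 0.04, with 513 called higher and 307 lower. The 3247 longest had a median of -0.01, with 345 higher and 441 lower. By the same measure the respiratory chain genes had a median length of 1432.5 bases. Cytosolic ribosomal protein genes had a median length of 1857 bases and the median log2 fold change of -0.02 given above. The part of length in the changes of either list was not tested. The mitochondrial messages were all above 0 in log2 fold change, from 0.04 to 0.28, with 6 of 13 called and 3 without either C3 replicate. ND1, of complex I, was at 3802 and 3760 CPM in scramble and 4509 and 4483 CPM in C3 (log2 0.25, SE 0.05). The shares called were 46.2% of the mitochondrial messages and 24.7% of mitochondrial ribosomal protein genes, beside 24.3% of all genes tested. Among all genes the calls were split, 12.4% higher and 11.9% lower, while those of the ribosomal list were mostly higher. Of 77 mitochondrial ribosomal protein genes, 18 were higher and 1 lower (median 0.16), and 6 were higher without scramble replicate 2 or C3 replicate 2.

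Protein quality control genes differed by group. Called were 50.0% of proteasome, 57.9% of heat shock and 38.1% of endoplasmic reticulum chaperone genes, beside 24.3% of all genes tested. Of 34 proteasome subunits, 17 were higher and none lower at that threshold (median 0.19), with 7 without scramble replicate 2 or C3 replicate 2 and 11 without C3 replicate 1. PSMB7, a catalytic subunit, was at 84.2 and 80.5 CPM in scramble and 105 and 110 CPM in C3 (log2 0.38, SE 0.07). Heat shock genes were higher in 10 of 19 and lower in 1, with 5 or 6 higher when any library was left out. The small chaperone HSPB1 rose from 67.7 and 68.4 CPM to 101 and 106 CPM (log2 0.61, SE 0.07), and HSPE1, the mitochondrial co-chaperonin, from 157 and 141 CPM to 203 and 228 CPM (log2 0.53, SE 0.08). HSPB1 rose in C6 too (log2 0.72), while HSPE1 was below scramble there (-0.48; adjusted p of the difference 7.9e-08). Endoplasmic reticulum chaperones gave 4 higher and 4 lower of 21 (median -0.07), and 2 of each without scramble replicate 2 or C3 replicate 2.

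Of 3 sphingolipid lists, 2 were called at a share slightly below the 24.3% of all genes tested, and so did not stand out from it. These were the lists of de novo ceramide synthesis and of sphingomyelin and sphingosine 1-phosphate (21.7% called in the latter). Of 20 tested genes of de novo ceramide synthesis, 1 was called higher and 3 lower, and the median log2 fold change was -0.03; 1 was lower without scramble replicate 2 or C3 replicate 2. KDSR, an early enzyme of the route, was at 41.7 and 41.0 CPM in scramble and 31.9 and 31.2 CPM in C3 (log2 -0.39, SE 0.09). SPTLC1, a subunit of the entry enzyme, had a log2 fold change of 0.08 (SE 0.06), and the ceramide synthases CERS2 and CERS6 of 0.14 and -0.02 (adjusted p = 0.0764 and 0.893). Among genes of sphingomyelin and sphingosine 1-phosphate, SGPP2, which dephosphorylates the latter, was at 13.9 and 12.5 CPM in scramble and 3.42 and 3.20 CPM in C3 (log2 -1.99, SE 0.17, adjusted p = 8.86e-07). CERK, which phosphorylates ceramide, rose from 23.8 and 26.5 CPM to 42.9 and 41.7 CPM (log2 0.75, SE 0.09). Of the 23 genes of that list 2 were higher and 3 lower, 1 of them without scramble replicate 2. SGPP2 fell in C6 as well (log2 -2.29), and CERK did not rise there (0.00; adjusted p of the difference 4.7e-06). Of 25 genes of glycosphingolipid synthesis and breakdown, 6 were higher and 3 lower (36.0% called, median 0.05). Of these, 3 were higher without scramble replicate 1, and 1 was lower without scramble replicate 1 or C3 replicate 1. ST3GAL2, a sialyltransferase, rose from 55.6 and 57.7 CPM to 79.8 and 72.1 CPM (log2 0.42, SE 0.08), and PSAP, the precursor of the saposins, fell from 404 and 376 CPM to 319 and 319 CPM (log2 -0.29, SE 0.06).

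Of 38 genes of G1/S and DNA replication, 12 were higher and 1 lower in C3, and 6 or 7 were higher when any library was left out. MCM5, of the replicative helicase, was at 59.8 and 62.6 CPM in scramble and 90.4 and 94.5 CPM in C3 (log2 0.59, SE 0.07), and CDC45, its activator, at 24.8 and 23.6 CPM against 36.1 and 37.6 CPM (log2 0.61, SE 0.09). Of 47 G2/M genes, 3 were higher and 3 lower, with a median of 0.02; 1 was higher without scramble replicate 2 or C3 replicate 2, and 1 lower without scramble replicate 2 or C3 replicate 1. The share called in C3 was 34.2% of the G1/S and replication genes and 12.8% of the G2/M genes, beside 24.3% of all genes tested. In C6, by contrast, 31 of the 47 G2/M genes were below scramble, and 29 were below C3 by the test of the difference. The cell-cycle inhibitor CDKN1A was at 9.58 and 9.68 CPM in scramble and 6.10 and 5.94 CPM in C3 (log2 -0.68, SE 0.13), and rose in C6 (0.99; adjusted p of the difference 3.1e-08).

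Genes that bear on colorectal cancer drugs were read as 2 further lists. Of 23 thymidylate and fluoropyrimidine genes, 5 were higher and 5 lower (median 0.13); 3 were higher with any single library left out, and 3 lower without C3 replicate 2. TYMS, the thymidylate synthase that fluorouracil inhibits, was at 67.8 and 70.8 CPM in scramble and 103 and 110 CPM in C3 (log2 0.63, SE 0.07), and TK1, of thymidine salvage, at 55.4 and 54.1 CPM against 78.1 and 82.6 CPM (log2 0.55, SE 0.07). UPP1, which activates fluorouracil by adding ribose, fell from 194 and 179 CPM to 89.0 and 99.3 CPM (log2 -0.99, SE 0.07, adjusted p = 6.1e-08). All 3 were separate from scramble in both libraries. UPP1 had the opposite sign in C6 (log2 1.22; adjusted p of the difference 4.6e-12), and TYMS did not rise there (-0.11). The efflux pump ABCB1 was at 26.6 and 26.4 CPM in scramble and 53.5 and 48.7 CPM in C3 (log2 0.95, SE 0.10), and below scramble in C6 (-0.54; adjusted p of the difference 3.3e-08). Of 20 ABC drug exporters, 3 were higher and 2 lower (median 0.05); 1 was lower without any library but scramble replicate 1. The share called was 43.5% of the thymidylate and fluoropyrimidine genes and 25.0% of the exporters, beside 24.3% of all genes tested. ABCC3, given above, fell. TYMS overlaps ENOSF1, so its reads carry the same uncertainty as those of other overlapping genes. No drug response was measured in these data.

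**Figure D4:**
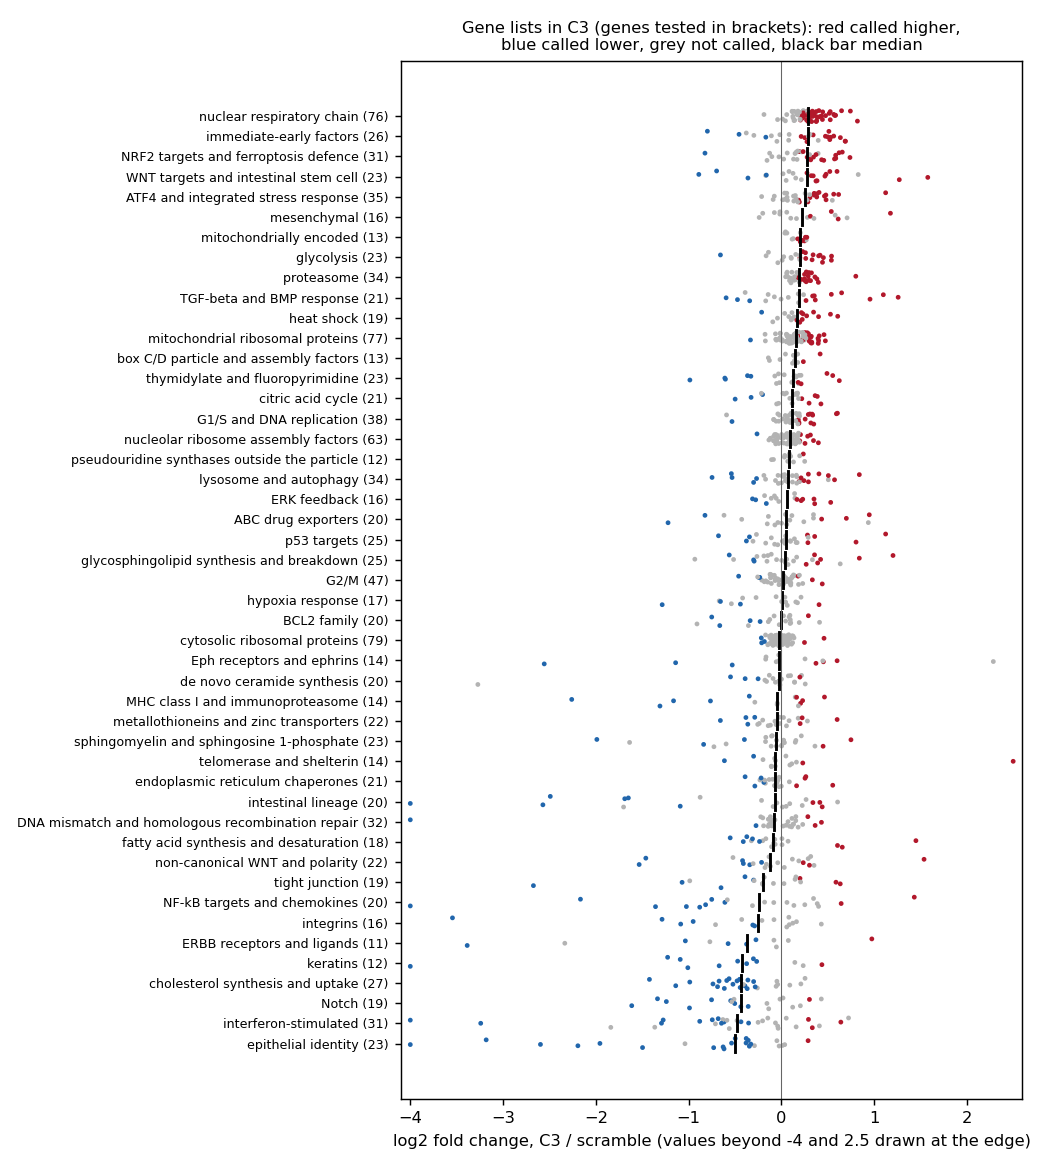
Each point is a gene of the list named on the y axis (number tested in brackets; lists with at least 10 tested genes), at its log2 fold change, C3 against scramble, on the x axis. Red marks genes called higher, blue genes called lower and grey the rest, and the black bar is the list's median, which runs from -0.50 for epithelial identity to 0.29 for the nuclear respiratory chain.

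Over the 48 lists, 464 of 1217 tested genes (38.1%) were called in C3, 284 higher and 180 lower, against 24.3% of all genes tested. The lists were chosen with results of these data known, so this share describes the choice as much as the cells. Without scramble replicate 2 and without C3 replicate 2 the counts were 298 and 296.

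Some of the changes followed the position of genes on chromosomes. The running median of the log2 fold change over 51 neighbouring genes left the range of -0.25 to 0.25 in 3 stretches of at least 20 genes. On chr20:45416141-64276226, 80 of 126 tested genes were higher and 6 lower (median 0.43). GNAS, the stimulatory G protein subunit, was at 415 and 395 CPM in scramble and 697 and 706 CPM in C3 there (log2 0.79, SE 0.06), and PSMA7, a proteasome subunit, at 125 and 120 CPM against 209 and 218 CPM (log2 0.80, SE 0.06). On chr7:135662514-158958698, 65 of 108 were higher and 7 lower (median 0.39), among them ZYX, a focal adhesion protein (89.5 and 92.0 CPM against 153 and 160 CPM). On chr4:152779954-189963192, 53 of 70 were lower and 4 higher (median -0.50). GALNT7, which adds O-linked glycans, was at 193 and 206 CPM in scramble and 59.1 and 57.5 CPM in C3 there (log2 -1.77, SE 0.07), and GASK1B, a Golgi protein, at 42.7 and 40.1 CPM against 6.97 and 6.97 CPM (log2 -2.57, SE 0.11).

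In the 3 stretches together 215 of 304 genes (70.7%) were called, against 3015 of 12995 (23.2%) elsewhere. The stretches were chosen by these same fold changes, so the share called and the common direction within them follow in part from that choice. The same stretches had medians of 0.55 on chromosome 20, 0.59 on chromosome 7 and -0.51 on chromosome 4 in C6, a comparison that shares the scramble libraries with that of C3. DNA copy number was not analysed here, so gene dosage and regulation cannot be told apart for these genes. With the running median removed from C3, 3034 genes were called in place of 3230, and the list medians for epithelial identity, cholesterol and the respiratory chain were -0.45, -0.39 and 0.29.

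**Figure D5:**
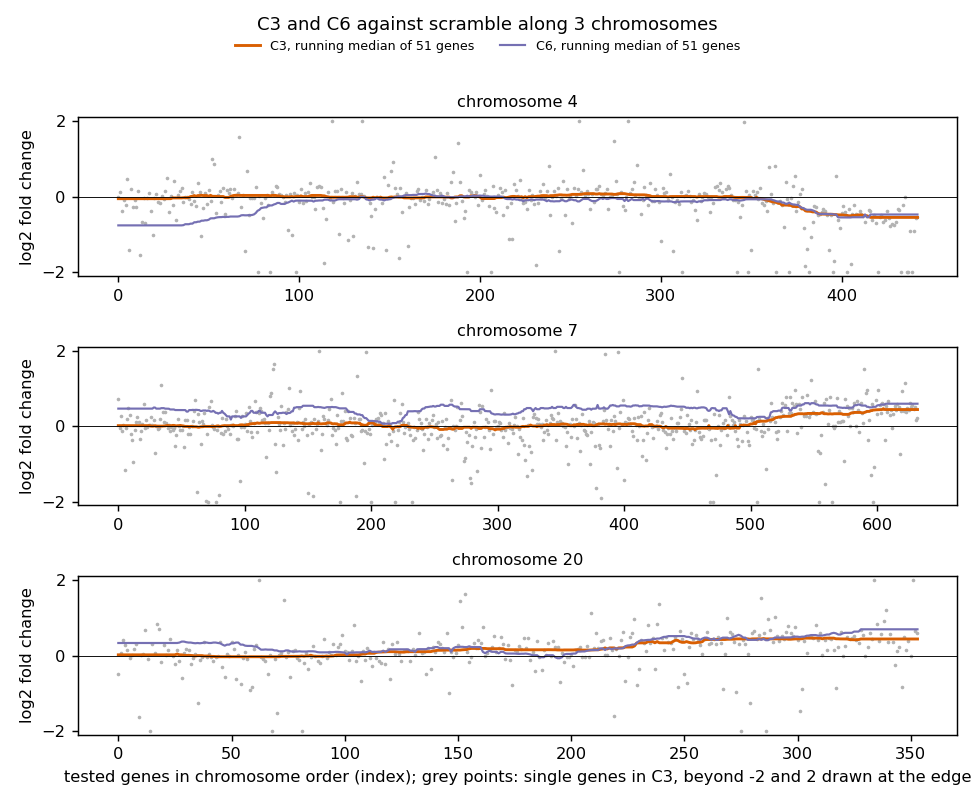
Log2 fold change against scramble (y axis) of tested genes in their order along chromosomes 4, 7 and 20 (x axis, gene index), with single genes of C3 as grey points and the running median of 51 genes as an orange line for C3 and a purple line for C6. The orange line leaves 0 at the right-hand end of each chromosome, with medians of -0.50, 0.39 and 0.43 in the stretches named, and the purple line is shifted over more of chromosomes 4 and 7.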

How the data were processed

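RNA was sequenced as paired ends from a stranded mRNA library kit, per the labels' protocols. The submitters' processing notes name Trimmomatic 0.38, HISAT2 2.1.0, StringTie 2.1.3b, DESeq2 and the build hg38. The deposited table holds whole-number read counts per gene, made by the authors; no source used here says how reads of overlapping genes were assigned. From these counts, levels were computed as CPM on TMM-scaled library sizes. Genes passing edgeR's default expression filter were tested with edgeR 4.0.16 (R 4.3.3), by the robust quasi-likelihood test with Benjamini-Hochberg adjustment, in 1 fit of scramble, C3 and C6 with 3 residual degrees of freedom. Standard errors were derived from the fold change and its F statistic. A gene was called at an adjusted p under 0.05. The test was checked on counts simulated with the spread fitted to these data. Such counts cannot show how reliable calls from 2 libraries a group are in the real data.

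Positions and promoters came from RefSeq GRCh38.p14, with 19450 of 19672 listed genes placed. A further search, of the letters CAGGTG for the epithelial identity list, matched 17.51% of promoters. It matched 3 of the 10 members with a promoter, ELF3, DSP and CDS1, none of which was called lower. Transcript lengths, that of the longest transcript of each gene, came from GENCODE for 97.65% of genes tested. Named genes were the target, the largest changes in fold (mean of at least 5 CPM) and in CPM, genes going on or off, genes differing most from C6, the leading genes of the chromosomal stretches, the members of each list with the smallest p and all members of the particle, telomerase, cholesterol, sphingolipid and epithelial lists. CMSS1 and SLCO1B7 (overlapping or neighbouring genes), B2M, TAP2, PSMB10, CALR, BIVM-ERCC5, JMJD7-PLA2G4B and PAK6, and members with a motif match were added after their values were seen. Members and lists were chosen with earlier results of these data known. Alternatives were other scalings and filters, DESeq2 1.42.0, a replicate block, C3 and scramble alone, each library left out, and removal of the positional shift. All libraries carry the same batch label. Some genes that met the rule are not reported here.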

Additional observations from a re-analysis of the deposited data

Results flagged for a closer look

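The test of C6 minus C3 called 6538 genes. The 20 below are a selection from them, the genes with the largest differences among those called in C3 where C6 was near scramble (6 in each direction) or called on its other side (4 in each direction). All adjusted p-values here are of C6 minus C3, from edgeR's quasi-likelihood test, adjusted by Benjamini-Hochberg, and both effects share the scramble libraries.

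Among genes higher in C3 with C6 near scramble, ZNF385B, a zinc finger protein, was at 2.19 and 2.94 CPM in scramble, 11.7 and 11.1 CPM in C3 and 2.16 and 2.37 CPM in C6 (adjusted p = 1.16e-07). ARPC4-TTLL3, a readthrough that overlaps ARPC4, TADA3 and TTLL3, and CTNND2, a delta-catenin, were at 3.45 and 2.74 CPM and at 3.65 and 1.92 CPM in C3 and had no count in scramble or C6 (adjusted p = 2.94e-06 and 1.09e-05). DKK2, a WNT antagonist, and PCP4, a calmodulin regulator, were at 0.42 and 0.427 CPM and at 0.387 and 0.391 CPM in C3, again with no count elsewhere (adjusted p = 0.0115 and 0.0148). CDHR1, a cadherin, had log2 fold changes of 2.24 in C3 and -0.24 in C6 (adjusted p = 0.0187). Both C3 libraries were above the other 4 libraries in each of these genes.

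Among genes lower in C3 with C6 near scramble, IGFL2 had log2 fold changes of -2.81 in C3 and -0.04 in C6 (adjusted p = 1.76e-09), and the chloride channel ANO1 of -2.40 and 0.17 (adjusted p = 4.58e-12). RGCC, a cell-cycle regulator, had values of -2.82 and 0.13 (adjusted p = 1.05e-06). The hypoxia factor EPAS1 (-2.52 and -0.01, adjusted p = 0.0279), SECTM1 (-2.69 and -0.21, adjusted p = 0.00344) and the Notch coactivator MAML3 (-2.26 and 0.22, adjusted p = 0.00625) are genes of low count in all 6 libraries.

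In 8 genes the lines lay on opposite sides of scramble. LPAR6, a lysophosphatidic acid receptor that lies within RB1, was at 0.706 and 0.261 CPM in scramble, 4.94 and 5.73 CPM in C3 and 0 and 0.144 CPM in C6 (adjusted p = 1.29e-06). COL2A1, a fibrillar collagen (adjusted p = 8.4e-06), ARSL, a sulfatase (adjusted p = 3.42e-05), and CA5A, a mitochondrial carbonic anhydrase (adjusted p = 9.16e-05), were also higher in C3 and lower in C6. AFF2 was at 0.483 and 0.335 CPM in scramble, 0.065 and 0 CPM in C3 and 4.41 and 4.93 CPM in C6 (adjusted p = 1.89e-07). SHANK1, a synaptic scaffold, the cytokine CSF2 and FAM50B had no count in C3 and averaged 2.1, 1.82 and 1.69 CPM in C6 (adjusted p = 5.65e-06, 2.35e-05 and 2.77e-05). The calls in C3 of CTNND2, DKK2, PCP4, CDHR1, EPAS1, SECTM1, MAML3, CA5A, COL2A1, ARSL and FAM50B were lost under at least 1 alternative.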

How the results depend on the processing

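Leaving out 1 library at a time gave 1946 to 2253 called genes in place of 3230, 933 to 1159 higher and 1001 to 1148 lower. Over the lists it gave 296 to 360 called genes in place of 464, 161 to 230 of them higher and 130 to 135 lower. C6 minus C3 gave 5155 to 6423 calls. Fewer samples enter these fits. The other alternatives gave 2608 (DESeq2) to 3320 calls (C3 and scramble libraries alone), and 3157 with upper-quartile scaling, where 41.7% of calls were higher in place of 51.2%. Of the named genes called, 304 in the fit reported, 285 kept their call with the positional shift removed, 287 with DESeq2, 253 to 260 with a library left out and 297 to 303 under the others. With the positional shift removed, the log2 fold change changed sign for NAF1 (0.051), B4GALT5 (-0.081), PDIA4 (-0.046), SNAI1 (-0.11), HMGB2 (0.036), UBE2C (-0.0029) and XRCC2 (-0.0063), which that subtraction itself produces.

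With a replicate block 2935 genes were called, 1470 higher and 1465 lower. The numbers do not pair the samples: deviations of same-numbered libraries correlated at -0.0465 between scramble and C3, 0.0644 between scramble and C6 and 0.0252 between C3 and C6, across genes. With 2 libraries a group, small changes in genes of low CPM are not resolved.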
